A study of Selaginella kraussiana with 4 samples.

Results

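In *S. kraussiana*, 413 loci were transcribed in the microphyll, the shoot tip and the stem at levels within a factor set by the rule, and lower in the rhizophore tip. They are called shoot-wide loci or member loci here. Loci that overlapped by 1 bp or more on a contig were merged across the 4 deposited tables into 31210 union loci, and 26055 of these were at least 300 bp long. With L as log2(FPKM + 1), a member had the lowest L of the 3 shoot tissues at least 1.5 above L of the rhizophore tip, and the highest and lowest L of the 3 less than 2 apart. FPKM counts fragments relative to transcript length in kilobases and to library size in units of 1000000 fragments. The first difference is called the gap and the second the spread. The 413 members were 1.59% of the union loci of at least 300 bp. They were 3.08% of the 13396 loci that could have passed, which are those with the lowest L of the shoot tissues at 1.5 or more and a spread under 2. The members were thus chosen by their FPKM in all 4 tissues, so the count, gap and spread are descriptions and no test was made on them.

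RNA of plants grown at 26°C with 16 h of light was sequenced as 1 library for each of 4 tissues, with no genotype or treatment that differed between them. The deposited labels are leaf, seedling, stem and rhizophore, and the study names the tissues microphyll, shoot tip, stem and rhizophore tip. Leaf was read as microphyll and seedling as shoot tip, since the other 2 names correspond. With a single library for each tissue there is no estimate of biological spread, and p-values are not given. The tables carry no gene names, so the tissues could not be checked against marker genes, and loci are named by contig and position, counted from 1 on the authors' draft contigs. Sequences of the contigs were not used here.

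*Selaginella* is a lycophyte, a vascular plant whose small leaves, the microphylls, have a single unbranched vein. Microphylls and stem are green shoot organs. The shoot tip holds the apical meristem, which forks to make new branches. A rhizophore is a leafless axis that arises from an angle meristem at a branch junction, grows towards the ground and bears the roots at its tip. In bulk tissue, less RNA per cell and fewer cells of the type that makes it cannot be told apart.

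Each library was about equally deep. The widths of the intervals implied totals, in units of 1000000 fragments, of 53.4 (microphyll), 58.0 (shoot tip), 47.2 (stem) and 49.9 (rhizophore tip). This takes each bound as 2 Poisson standard deviations from the FPKM. The intervals were read as 95% intervals, as Cufflinks gives them by convention, and cover the error within a library only.

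Over the 413 members, microphyll, shoot tip and stem had medians of 25, 20.9 and 18.6 FPKM. In the rhizophore tip, 252 members (61.0%) were listed, with a median of 7.06 FPKM, and 161 (39.0%) had no locus there, against 1.2% of all loci that could have passed, a share made up of these 161. A member that is not listed was given an FPKM of 0 by the rule, although reads may have been present without a locus being assembled. Among the other 12983 loci that could have passed, the medians were 18.8, 19.4 and 18.0 FPKM in the microphyll, shoot tip and stem, and 20.3 FPKM in the rhizophore tip. The members thus had shoot levels near or above those of the other loci. Their rhizophore tip levels lay below.

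**Figure D1:**
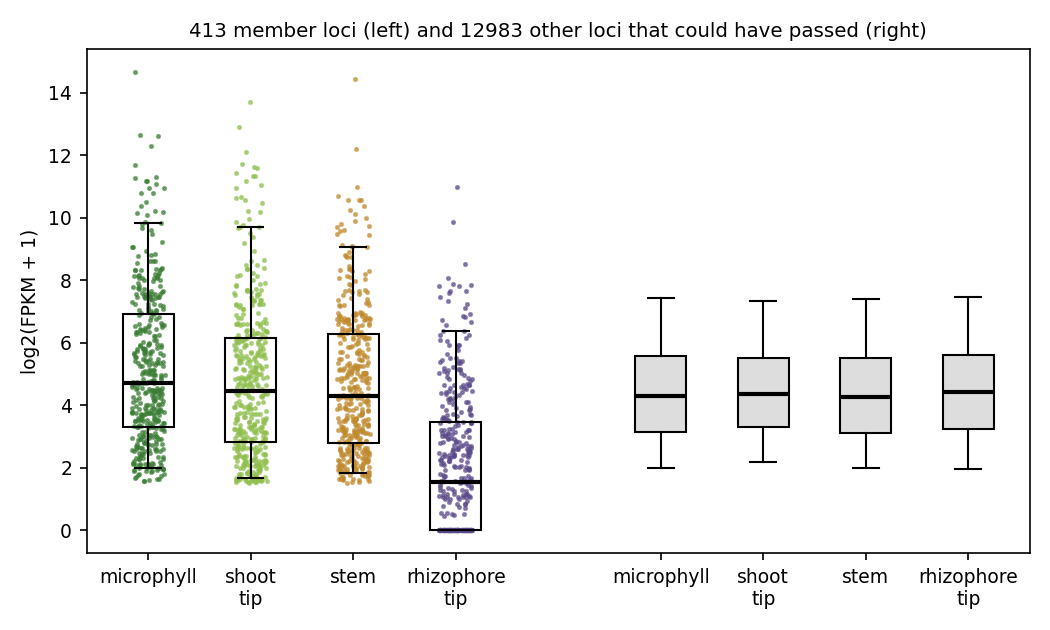
Level of each locus as log2(FPKM + 1) in the 4 tissues, with the 413 members as points and boxes on the left and the 12983 other loci that could have passed as boxes on the right. Boxes span the quartiles, thick lines are medians and whiskers run from the 5th to the 95th percentile; the members have similar boxes in the 3 shoot tissues and a low one in the rhizophore tip, where 161 lie at 0.

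The gap of the members had a median of 2.04 and ran from 1.5 to 8.01. It was at least 2 in 212 members, at least 3 in 54 and at least 4 in 19. For comparison, medians were taken over all loci that could have passed. A gap sets the lowest of 3 tissues against the low one, so its median tends to lie below 0 even where tissues are alike. With the rule turned to the microphyll, shoot tip or stem as the low tissue, it was -0.27, -0.46 and -0.31 in FPKM. With the rhizophore tip as the low tissue, the median gap was -0.47 in FPKM. It was -0.37 with median-of-ratios factors, taken from loci listed in all 4 libraries. It was 0.09 after rescaling to TPM, which divides by the summed FPKM of a library over all its listed loci. In the rhizophore tip this sum was 7.98e+06 FPKM, of which union loci of at least 300 bp held 1.14e+06. In the microphyll the values were 3.86e+06 and 1.11e+06. The sign of the median gap thus turned with TPM but not with the median-of-ratios factors. The pseudocount of 1 was kept with TPM, where it weighs more than in FPKM. Where the rhizophore tip listed the locus, the ratio of FPKM could be taken without a pseudocount. In these 252 members the median ratio to the rhizophore tip was 10.2 for the microphyll, 6.75 for the shoot tip and 5.76 for the stem. The lowest shoot tissue was 4.54 times the rhizophore tip in the median, with a range from 2.86 to 47.7. It reached 5 times in 109 members and 10 times in 37.

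Most of these differences were wide relative to the intervals. In 241 of the 252 listed members (95.6%), the upper bound in the rhizophore tip lay below all 3 lower bounds of the shoot tissues. The same was true of 12% of all 13235 listed loci that could have passed. Through the rule, the lowest shoot tissue of every listed member was at least 2.86 times the rhizophore tip. With the interval widths given below, bounds that lie apart therefore largely follow from the rule. The shares of 95.6% and 12% are descriptions and add no separate evidence for the difference. The ratio of the lowest shoot lower bound to the rhizophore tip upper bound was at least 5 in 58 members and at least 10 in 20. The remaining 11 listed members had overlapping bounds. Intervals were wider for members than for other loci. Over the members, the upper bound exceeded the FPKM by a median of 10.5% (microphyll), 13.4% (shoot tip), 14.5% (stem) and 15.2% (rhizophore tip). Over the other loci the medians were 9.47%, 8.92%, 10.6% and 9.65% in the same order.

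**Figure D2:**
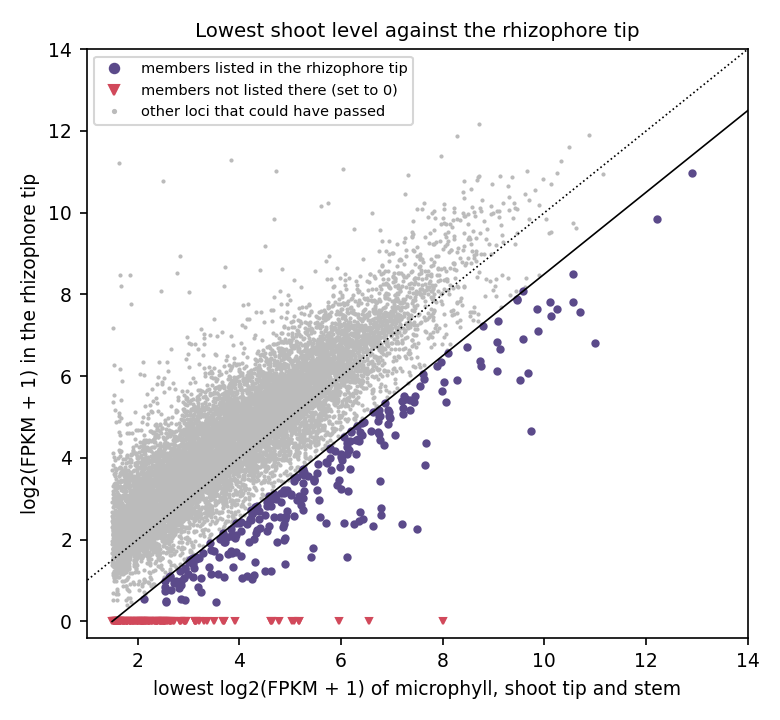
Lowest log2(FPKM + 1) of microphyll, shoot tip and stem on the horizontal axis against the rhizophore tip on the vertical axis, for the loci that could have passed. The dotted line marks equal levels and the solid line a gap of 1.5; all members lie on or below the solid line by the rule, 252 as circles and the 161 that are not listed in the rhizophore tip as triangles at 0.

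The listed and the unlisted members differed in level and length. Listed members had a median lowest shoot level of 37.3 FPKM and a median union length of 1513.5 bp, where the union length runs from the first to the last base of all merged loci. Unlisted members had medians of 3.37 FPKM and 435 bp. Of the 185 members with a lowest shoot level under 10 FPKM, 145 were not listed. Of the 228 at 10 FPKM or more, 16 were not. A small number of fragments can leave a locus unlisted. Where the fragments implied by the interval lay close to those expected from FPKM and length, at most 1 locus in a library had under 11 fragments, and 11 is used as a listing floor. Of all listed loci, whose intervals can be wider than Poisson, 4.01% to 4.18% in a library had under 11 implied fragments. Against the FPKM that 11 fragments would have in the rhizophore tip library, the lowest shoot level of 86 of the 161 unlisted members was higher by at least 1.5 on the log2 scale, and that of 4 lay under it. With this floor for all members, 335 of the 413 kept a difference of at least 1.5 without a pseudocount.

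Members were most frequent at both ends of the range of levels. They were 126 of 3058 loci (4.12%) with a lowest shoot level under 5 FPKM, of which 120 were not listed in the rhizophore tip. Between 10 and 30 FPKM they were 81 of 4133 loci (1.96%). At 100 to under 300 FPKM the share was 6.03% (41 of 680), and from 300 FPKM it was 16.8% (27 of 161). All 27 of the most abundant members were listed in the rhizophore tip, and the lowest shoot tissue was 5.26 times the rhizophore tip in their median. In the plot of shares by level, the low end thus consists mainly of unlisted loci and the high end of listed ones. These shares come from the levels that chose the members and were not tested.

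**Figure D3:**
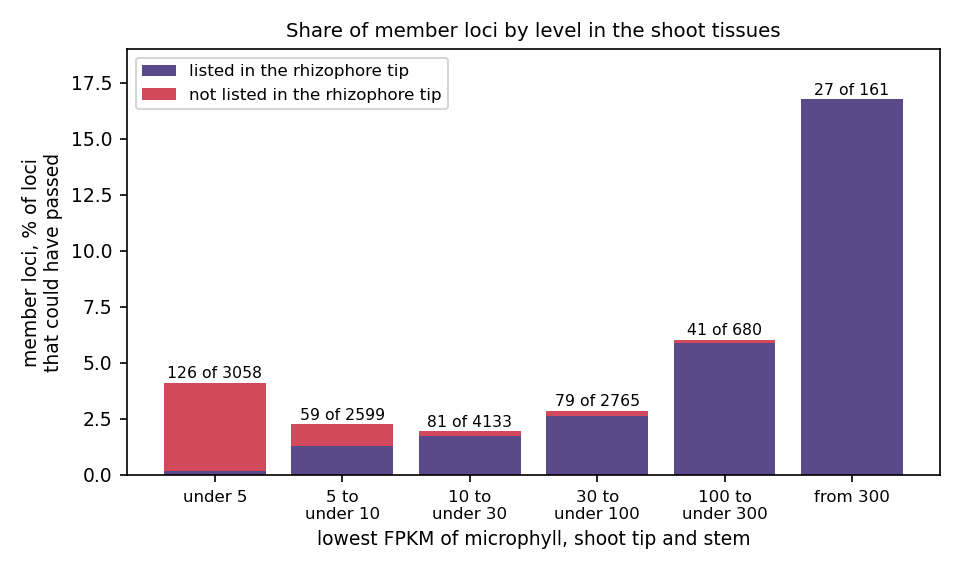
Member loci as a percentage of the loci that could have passed, by the lowest FPKM of the 3 shoot tissues. Bars are split into members listed and not listed in the rhizophore tip, with the counts above them; the share is 1.96% in the class from 10 FPKM to under 30 FPKM and 16.8% from 300 FPKM.

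Abundant members held much of the members' FPKM. Of the FPKM summed over union loci of at least 300 bp, microphyll, shoot tip and stem had 9.47%, 7.37% and 5.67% in the 413 members, against 0.819% for the rhizophore tip. Of the FPKM summed over all listed loci, shorter ones included, the members had 2.72%, 1.25% and 2.00% in the same shoot tissues, against 0.117% in the rhizophore tip. The 8 members with the highest lowest shoot level accounted for 49.9%, 47.4% and 53.2% of the members' sum in the 3 shoot tissues, and for 44.8% of it in the rhizophore tip. Among these 8, the microphyll was highest in 5 and the shoot tip in 3. The locus on contig 054616 had 13202 of the members' 83457 FPKM in the shoot tip. In the microphyll, stem and rhizophore tip it had 6372 of 104955, 4740 of 67779 and 925 of 9369 FPKM. Its shoot extents of 111 to 122 bp were short, so its FPKM is uncertain, as described below. The sums were not recomputed without it.

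On contig 063554, the locus from 2054 to 2573 had the highest level of all members. It reached 25767 FPKM in the microphyll (95% interval 24700 to 26835), 7692 FPKM in the shoot tip and 22049 FPKM in the stem, against 2002 FPKM in the rhizophore tip (95% interval 1913 to 2091). The shoot tip, although lowest of the 3, was 3.84 times the rhizophore tip. On contig 025432, the locus from 118 to 2548 had 6271 FPKM in the microphyll, 2563 FPKM in the shoot tip and 2033 FPKM in the stem, against 111 FPKM in the rhizophore tip. Its lowest shoot level was 18.3 times the rhizophore tip, and its gap of 4.18 also places it among the 8 largest gaps of listed members. Both loci were highest in the microphyll, and none of their shoot intervals reached the rhizophore tip interval.

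The other 6 of this group lay between 1127 and 13202 FPKM in the shoot tissues. On contig 045971, the locus from 269 to 1320 had 4958, 4422 and 1662 FPKM in the microphyll, shoot tip and stem, against 190 FPKM in the rhizophore tip. On contig 041282, the locus from 1488 to 2734 was the flattest of the 8, with a spread of 0.92. It had 2296, 2126 and 1211 FPKM in the same 3 tissues, against 199 FPKM in the rhizophore tip. On contig 096523, the locus from 1119 to 2240 was highest in the shoot tip at 3046 FPKM, with 2307 FPKM in the microphyll and 1514 FPKM in the stem, against 364 FPKM in the rhizophore tip. In these 3 loci the stem was the lowest shoot tissue, at 8.75, 6.07 and 4.16 times the rhizophore tip. On contig 043366, the locus from 942 to 4188 had 3397 FPKM in the shoot tip, 1127 FPKM in the microphyll and 1312 FPKM in the stem, against 176 FPKM in the rhizophore tip, as sums of up to 3 listed loci in a library. It was listed over 3130 bp in the shoot tip and 3185 bp in the rhizophore tip, but over 1632 bp in the microphyll and 1544 bp in the stem.

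Values of the remaining 2 were less certain. On contig 105612, the locus from 1 to 4227 had 3314, 3117 and 1520 FPKM in the microphyll, shoot tip and stem, against 226 FPKM in the rhizophore tip. Here the summed upper bound in the rhizophore tip was 31160 FPKM, above all shoot levels, and the locus was listed over 1184, 1508 and 1218 bp in the 3 shoot tissues, against 4227 bp. On contig 054616, the locus from 22 to 432 had 6372, 13202 and 4740 FPKM in the 3 shoot tissues, against 925 FPKM in the rhizophore tip. It was listed over 112 bp, 122 bp and 111 bp in the microphyll, shoot tip and stem and over 411 bp in the rhizophore tip. Its intervals implied 367, 1422 and 131 fragments in the shoot libraries and 9534 in the rhizophore tip library. The FPKM was thus higher in the shoot tissues while the implied number of fragments was higher in the rhizophore tip.

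This case led to a comparison of the extents, meaning the stretch over which each library listed a locus. FPKM divides by the length of the transcript corrected for fragment length, which the intervals put at 189 bp in the microphyll, 199 bp in the shoot tip, 205 bp in the stem and 196 bp in the rhizophore tip. An extent under that size therefore gives a high FPKM from few fragments. In 28 of the 252 listed members (11.1%), the shortest shoot extent was under 0.5 times the rhizophore tip extent. Among the other loci that could have passed, 258 (1.99%) had this feature. In 170 listed members (67.5%), and in 86.8% of the other loci, the ratio of extents lay between 0.8 and 1.25. The median gap was 2.29 in the 28 and 1.91 in the 170. An extent under 300 bp in any library was found in 63 members, 17 of them listed in the rhizophore tip, so 350 members had only extents of at least 300 bp. The part that extent plays in the other gaps was not tested.

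**Figure D4:**
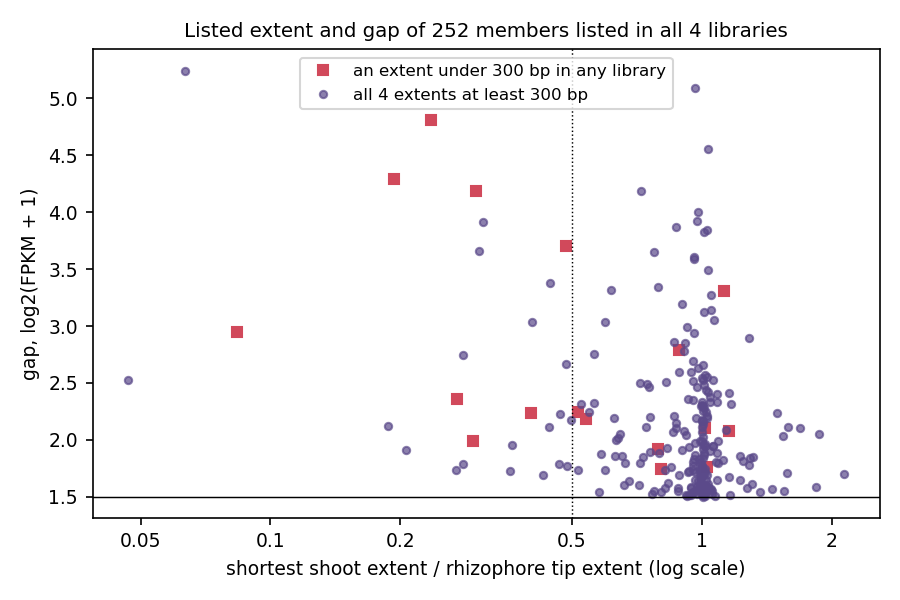
Gap of the 252 members listed in all 4 libraries against the ratio of the shortest shoot extent to the rhizophore tip extent, on a log scale. Squares are members with an extent under 300 bp in any library and circles those without; the dotted line is a ratio of 0.5, left of which lie 28 members, 4 of them with a gap of at least 4.

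Of the 8 largest gaps among listed members with at least 10 FPKM in each shoot tissue, 4 belonged to loci with a shortest shoot extent under 0.5 times that in the rhizophore tip. On contig 097961, the locus from 1 to 4946 had 267 FPKM in the microphyll, 180 FPKM in the shoot tip and 277 FPKM in the stem, against 3.77 FPKM in the rhizophore tip. Its lowest shoot level was 47.7 times the rhizophore tip, the highest ratio of all listed members. It was listed over 4885 bp in the microphyll and 4946 bp in the rhizophore tip, but over 1205 bp in the shoot tip and 313 bp in the stem. The microphyll value is a sum over 2 listed loci. The intervals implied 4481, 2010 and 701 fragments in the microphyll, shoot tip and stem libraries and 691 in the rhizophore tip library. Implied fragments are understated where an interval was widened, and they levelled off in abundant loci. On contig 063554 they were 2330, 2282 and 2322 in these shoot libraries, at 25767, 7692 and 22049 FPKM. The implied fragments on contig 097961 therefore do not measure how far apart the libraries were.

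The other 3 of these were short. On contig 075899, the locus from 1355 to 1953 had 189, 234 and 147 FPKM in the microphyll, shoot tip and stem, against 4.26 FPKM in the rhizophore tip, and its extents were 142, 141 and 142 bp, against 599 bp. The intervals implied 68.7, 73.6 and 34.2 fragments in the shoot libraries and 84.0 in the rhizophore tip library. On contig 079054, the locus from 4064 to 4742 had 189, 177 and 97.7 FPKM in the same shoot tissues, against 4.05 FPKM in the rhizophore tip, from 52.8, 39.5 and 13.0 fragments, against 96.2. In both, the fragments were more numerous in the rhizophore tip than in any shoot library, unlike the FPKM. On contig 055489, the locus from 1 to 428 had 123, 110 and 326 FPKM in the 3 shoot tissues, against 5.07 FPKM in the rhizophore tip, from 97.1, 41.3 and 34.7 fragments, against 56.0. There only the microphyll had more fragments than the rhizophore tip.

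Large gaps also occurred at equal extents. On contig 005108, the locus from 457 to 2239 had 1972 FPKM in the microphyll (95% interval 1890 to 2054), 1979 FPKM in the shoot tip (1897 to 2061) and 856 FPKM in the stem (819 to 892), against 24.1 FPKM in the rhizophore tip (22.4 to 25.8). Its extents ran from 1604 bp to 1783 bp over the 4 libraries, and its lowest shoot level was 35.5 times the rhizophore tip. With a gap of 5.09, it was the highest of the 170 members with a ratio of extents between 0.8 and 1.25. Microphyll and shoot tip had overlapping intervals, and the stem lay below both. On contig 086385, the locus from 9 to 829 had 199, 92.1 and 68.9 FPKM in the microphyll, shoot tip and stem, against 1.98 FPKM in the rhizophore tip, where the interval ran from 1.12 to 2.84 FPKM. On contig 041607, the locus from 38 to 781 had 433, 190 and 109 FPKM in the same order, against 5.89 FPKM in the rhizophore tip. These 2 loci declined in order from the microphyll over the shoot tip to the stem, and their lowest shoot levels were 34.8 and 18.6 times the rhizophore tip.

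Unlisted members included loci that were far above the listing floor. On contig 099521, the locus from 486 to 942 had 256 FPKM in the microphyll, 491 FPKM in the shoot tip and 313 FPKM in the stem. It was not listed in the rhizophore tip, where 11 fragments would correspond to 4.22 FPKM as scaled from the implied fragments, or less where these are understated. Its gap of 8.01 was the largest of all members. On contig 056278, the locus from 892 to 1786 had 61.6, 101 and 119 FPKM in the microphyll, shoot tip and stem, with a floor of 0.737 FPKM. On contig 052473, the locus from 6 to 511 had 40.6, 35.2 and 94.5 FPKM in the same order, with a floor of 0.746 FPKM. On contig 043009, the locus from 327 to 2288 had 32.9, 52.6 and 62.7 FPKM, with a floor of 0.160 FPKM. These 3 were highest in the stem. On contig 085865, the locus from 1101 to 2274 had 93.1 and 149 FPKM in the microphyll and shoot tip, and a stem value of 185 FPKM with a lower bound of 0 that is not a usable measure. The most even of this group lay on contig 094954 from 141 to 1712, with 38.1, 35.0 and 40.6 FPKM in the 3 shoot tissues. Its spread was 0.21, its microphyll interval overlapped those of the shoot tip and the stem, which did not overlap each other, and its floor in the rhizophore tip was 0.390 FPKM.

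**Figure D5:**
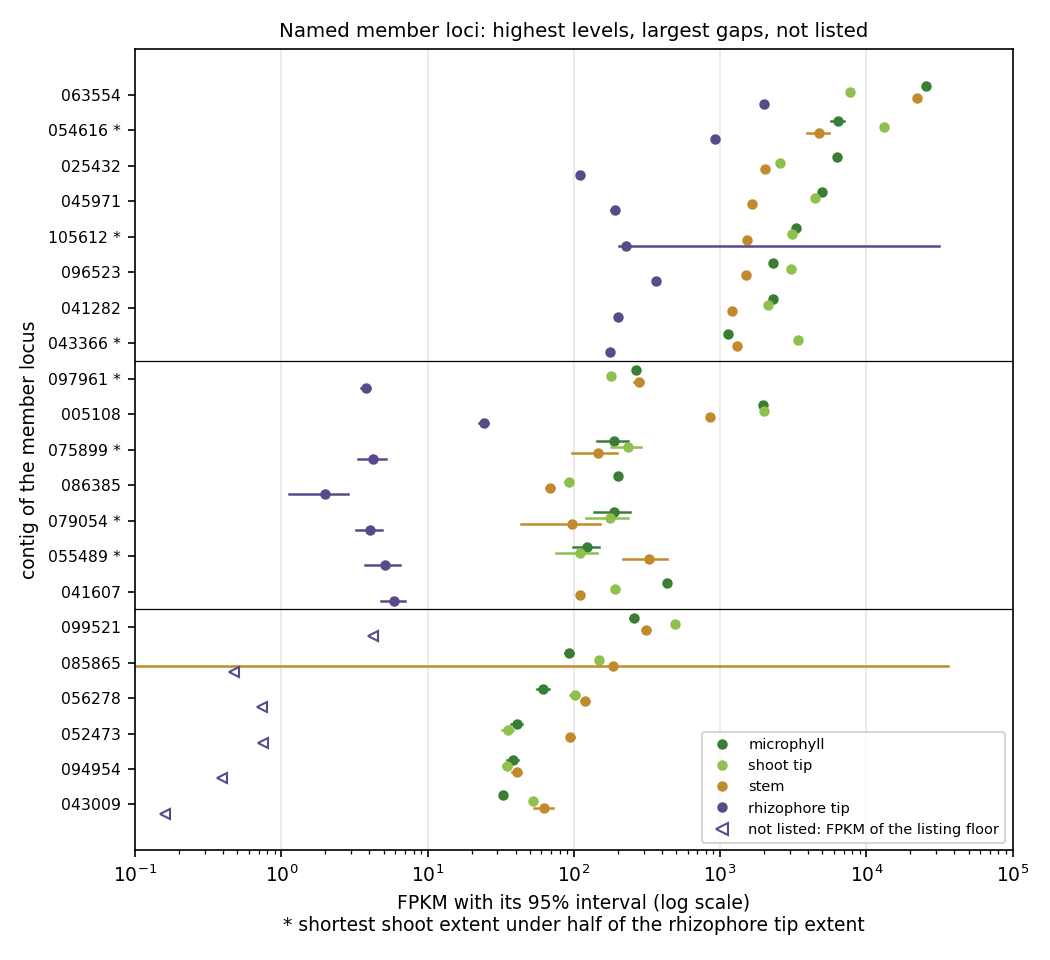
FPKM with its 95% interval on a log scale for the named members, one row for each contig, in 3 blocks: the 8 highest, the listed members with the largest gaps that are not among those 8, and the 6 highest not listed in the rhizophore tip. Open triangles give the FPKM of 11 fragments where the rhizophore tip lists no locus, asterisks mark a shortest shoot extent under 0.5 times the rhizophore tip extent, and the 2 longest lines are the rhizophore tip on contig 105612 and the stem on contig 085865; the rhizophore tip is the lowest point in every row.

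The 3 shoot tissues were not interchangeable within the members. The microphyll was highest in 235 members (56.9%), the shoot tip in 95 (23.0%) and the stem in 83 (20.1%). Over the other loci that could have passed, the microphyll was highest in 37.8%, the shoot tip in 35.9% and the stem in 26.3%. The stem was lowest in 185 members (44.8%) and in 38.2% of the other loci, and the microphyll in 68 (16.5%), against 35.2%. The microphyll was highest in 158 (62.7%) of the listed members and in 77 (47.8%) of the unlisted ones. The most frequent order was microphyll, shoot tip, stem, in 125 members (30.3%), followed by microphyll, stem, shoot tip in 110 (26.6%). All 4 levels entered the rule, so these shares are descriptions.

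The share with the microphyll highest was above that of the other loci at each level. It was 51.9% of the members with a lowest shoot level under 10 FPKM, against 35.1% of the other loci at that level. From 10 to under 100 FPKM it was 63.8%, against 40.4%, and from 100 FPKM it was 54.4%, against 33.9%. The stem was highest in 44 of the 185 members under 10 FPKM, in 31 of the 160 from 10 to under 100 FPKM, and in 8 of the 68 from 100 FPKM. The spread over the 3 shoot tissues had a median of 1.15 in the members and 0.89 in the other loci. It was under 1 in 178 members (43.1%) and in 57.0% of the other loci, and it was under 0.5 in 61 members.

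Length was used by the rule only as a minimum. The union length of the members had a median of 961 bp and a range from 300 bp to 12679 bp, and that of the other loci a median of 1338 bp. Among loci from 300 to under 600 bp, 146 of 3158 (4.62%) were members, of which 108 were not listed in the rhizophore tip. The share was 3.07% from 600 to under 1200 bp, 2.79% from 1200 to under 2400 bp and 2.05% from 2400 bp. For loci listed in the rhizophore tip alone, the shares in these 4 classes were 1.25%, 2.08%, 2.40% and 1.84%. The excess in the shortest class was thus confined to unlisted loci in this count. A sum over more than 1 listed locus in a library was involved in 160 members (38.7%), and in 32.3% of the other loci.

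The placement of members along the genome cannot be seen, as most loci were alone on their contig of the draft assembly. The members lay on 411 contigs, and 298 members (72.2%) were the sole union locus of their contig, against 73.7% of the other loci. A start within the first 10 bp of the contig was found in 160 members (38.7%) and in 43.2% of the others. A neighbouring union locus on the same contig that could have passed was present for 52 members, in 56 pairs. Gaps of these neighbours had a median of -0.26, and 20 of 56 (35.7%) were above 0. For neighbours of the other loci the median was -0.45 over 1738 pairs, and 25.5% were above 0. Of the neighbours of members, 4 (7.14%) were members themselves, against 2.99% of the neighbours of other loci. Neighbouring members were counted from both sides, so these 4 are reciprocal entries from the contigs described in the next paragraph. The same 4 are among the 20 gaps above 0. A gap above 0 was found in 24.9% of all loci that could have passed. A majority of neighbours at or below 0 is thus what loci in general show. The differences between neighbours of members and of other loci were not tested.

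Only contigs 057835 and 102078 carried 2 members. On contig 057835, the member from 2328 to 3762 had 174, 187 and 85.5 FPKM in the microphyll, shoot tip and stem, against 4.69 FPKM in the rhizophore tip. Its neighbour from 738 to 2065 had 18.0, 27.8 and 15.5 FPKM, against 3.61 FPKM. Both were highest in the shoot tip and lowest in the stem. A further union locus on this contig, from 73 to 537, was listed in the stem alone at 1.88 FPKM and is no member. On contig 102078, the member from 4322 to 7336 had 289, 228 and 203 FPKM in the 3 shoot tissues, against 19.5 FPKM in the rhizophore tip. The member next to it, from 7 to 4071, had 32.7, 97.7 and 38.2 FPKM, against 5.03 FPKM. The first was highest in the microphyll and the second in the shoot tip.

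The limits of the rule fell within a continuous range. Just inside the gap of 1.5 was the locus on contig 104243 from 630 to 1390, with 135, 98.2 and 196 FPKM in the microphyll, shoot tip and stem, against 34 FPKM in the rhizophore tip, together with that on contig 085471 from 8 to 378, with 3.82, 1.83 and 2.07 FPKM and no locus in the rhizophore tip. Just outside were contig 045845 from 80 to 497, with 4.01, 1.83 and 5.09 FPKM and none in the rhizophore tip, and contig 104788 from 1641 to 2307, with 21.8, 16.1 and 49.9 FPKM, against 5.07 FPKM. Spreads just under 2 belonged to contig 041784 from 2 to 722 (18.2, 3.86 and 17.7 FPKM) and contig 094037 from 107 to 500 (10.9, 2.01 and 3.88 FPKM), neither listed in the rhizophore tip. Spreads just over 2 belonged to contig 049196 from 2 to 401 (60.2, 23.5 and 14.2 FPKM, against 4.15 FPKM) and contig 067037 from 43 to 544 (2.62, 13.7 and 3.76 FPKM, not listed). At the length limit, contigs 089480 and 015193 held members of 300 bp and 301 bp, and contigs 047925 and 075301 held loci of 299 bp. These 4 were not listed in the rhizophore tip, and their shoot levels lay between 3.75 and 15.6 FPKM.

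Rescaling the values changed which loci passed. Median-of-ratios factors, taken from loci listed in all 4 libraries, moved the median gap over all loci that could have passed by 0.10, and rescaling to TPM moved it by 0.55. With the factors, 404 of the 413 members remained among 452 loci. With TPM, 169 remained among 381 loci. The pseudocount of 1 was kept on the TPM scale, where it weighs more, since the summed FPKM of each library exceeds 1000000. It also weighs unequally, since that sum differs between libraries. In FPKM, a pseudocount of 5 kept 162 of the 413 members among 172 loci. Changes with TPM thus mix the scaling with a heavier pseudocount, and these were not separated.

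The same rule was applied with each other tissue as the low one. It found 921 loci low in the microphyll, which were 3.53% of the loci of at least 300 bp and 6.38% of the 14425 that could have passed. The shoot tip had 205 (0.787% and 1.61% of 12744), and the stem had 219 (0.841% and 1.67% of 13094). In FPKM the rhizophore tip with 413 stood between the microphyll and the others by count. With TPM the rhizophore tip had the most, at 381, against 202 (microphyll low), 82 (shoot tip low) and 42 (stem low). The heavier pseudocount on the TPM scale enters these counts too. From 300 FPKM in the lowest of the other 3 tissues, 16.8% of the loci passed for the rhizophore tip, 11% (18 of 164) for the microphyll, 8.40% (10 of 119) for the shoot tip and 7.81% (10 of 128) for the stem. Loci low in the rhizophore tip held 7.46% of the FPKM of loci of at least 300 bp summed over the 3 other tissues, against 5.10% (microphyll low), 2.35% (shoot tip low) and 1.45% (stem low). Loci with short extents were not left out of any of these sums. With 1 library per tissue, none of these differences could be tested.

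Applied in the other direction, with 1 tissue at least 1.5 above the highest of the other 3 and the same limits for spread and length, the rule found 678 loci high in the rhizophore tip (2.6% of the 26055), against 413 low there. The mirrored counts were 841 (3.23%) with the microphyll high, 320 (1.23%) with the shoot tip high and 530 (2.03%) with the stem high. For the rhizophore tip, the order of the high and low counts turned with TPM, which gave 187 high and 381 low. This turn was not separated from the heavier pseudocount on the TPM scale.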

How the data were processed

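Each of the 4 tissues of *S. kraussiana* gave 1 paired-end library from total RNA. Reads lost their first 10 bases, and the authors mapped the remainder with TopHat 2.0 against their ABySS 1.5.1 contigs and estimated levels with Cufflinks 2.1. Values were deposited per library as FPKM for each assembled locus, beside the limits of its interval, and without counts, gene names or strands. Tables were joined here by overlap of at least 1 bp, and FPKM values and bounds were summed within a union locus, with 0 where none was listed. The rule used a pseudocount of 1, which understates differences of low loci. Fragments behind a locus were taken as the square of 2 FPKM over the distance to the upper bound. This understates them where the authors' model widened the interval. The floor of 11 fragments was converted to FPKM with the shoot library that had the most implied fragments. Where these were understated, the floor in FPKM is overstated.

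The loci named were the 8 members highest in their lowest shoot tissue, the 8 listed members with the largest gap among those of at least 10 FPKM, the 6 highest unlisted members, the pairs next to each limit, and contigs with the most members. The members, lists and limits were chosen with earlier results of these data known. Computations were tested on simulated tables, and used Python 3.11.15, pandas 2.3.3 and numpy 2.4.6. Alternatives for the pseudocount, scaling, filters and merging are given in the closing section.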

Additional observations from a re-analysis of the deposited data

How the results depend on the processing

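The number of member loci was 413 as reported. A pseudocount of 0.1 gave 730, which included 388 of the 413, and one of 5 gave 172, which included 162. It was 228 with a lowest shoot level of at least 10 FPKM, 642 with no length minimum, 267 from 600 bp, 846 at a gap of at least 1, 212 at a gap of at least 2, 178 with a spread under 1, 253 with at most 1 locus per library and 252 with only loci listed in the rhizophore tip, the last chosen after seeing the data. These alternatives pass more or fewer loci by construction. TPM, median-of-ratios factors, bounds that lie apart, merging of loci within 100 bp and the listing floor gave 381, 452, 399, 400 and 335. Of the 399 with bounds apart, 241 were listed in the rhizophore tip. The unlisted ones had no interval there, and passed with a bound set to 0 wherever all their shoot lower bounds were above 0. Of the alternatives chosen after seeing the data, extents of at least 300 bp gave 350, a shortest shoot extent of at least 0.5 times that in the rhizophore tip 385, and the floor with extents of at least 300 bp 301.

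The share of members not listed in the rhizophore tip, 39.0% as reported, was 19.9% from 600 bp, 7.02% from 10 FPKM and 51.8% with at most 1 locus per library. The median gap of 2.04 was 1.91 over members listed in all 4 libraries with extents of at least 300 bp, a setting chosen after seeing the data. With TPM, the rule gave 202 (microphyll low), 82 (shoot tip low) and 42 (stem low), and the mirrored rule gave 187 for the rhizophore tip. From 600 bp the shoot tip had 125, the stem 110 and the mirrored rule 362. The rhizophore tip thus had the most low loci of the 4 tissues with TPM, and the microphyll in FPKM. For the mirrored rule, TPM turned the order of high and low counts in the rhizophore tip, and the median gap over all loci that could have passed changed sign with it. The same pseudocount weighs more in TPM than in FPKM, so these changes mix the scaling and the pseudocount. No paired analysis was possible because no tissue was replicated, so that no library could be left out either. Of the 161 unlisted members, 75 lay within 1.5 of the listing floor on the log2 scale or under it, and 86 lay further above it. The part that depth plays in the unlisted members was not tested.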

Other observations

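Of the 26055 union loci of at least 300 bp, 598 met the gap. Of these, 185 had a spread of 2 or more over the shoot tissues, so they were no members. The microphyll was highest in 114 of the 185, the shoot tip in 42 and the stem in 29. No share among all loci with such a spread was taken for comparison, so these counts are descriptions.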
